A study of Mus musculus with 24 samples.

Results

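Bile acid handling in the mouse distal jejunum was described here through 7 genes: the transport genes *Slc10a2*, *Fabp6*, *Slc51a* and *Slc51b*, the nuclear receptor genes *Nr1h4* and *Nr0b2*, and the hormone gene *Fgf15*. The genes were chosen by name, as the rows of the count and FPKM tables that carry these symbols, and all 7 were found among the 56691 genes listed. Each symbol had 1 row.

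Bile acids are made in the liver, released into the gut to dissolve fat, and recovered mostly in the last stretch of the small intestine. The enterocyte takes them up through the apical sodium-dependent transporter encoded by *Slc10a2*, carries them bound to the ileal lipid-binding protein encoded by *Fabp6*, and releases them through the basolateral exporter whose alpha and beta subunits are encoded by *Slc51a* and *Slc51b*. Inside the cell bile acids activate the receptor FXR, encoded by *Nr1h4*, which is known to induce *Fabp6*, *Slc51a*, *Slc51b*, *Fgf15* and the co-repressor gene *Nr0b2* (SHP), and FGF15 travels to the liver to lower bile acid synthesis.

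The study asked what loss of the epithelial tyrosine kinase PTK6 does in male and female intestine, at rest and after succinate, a metabolite that activates tuft cells when given in drinking water. Distal jejunum of 24 mice, 3 in each of 8 groups, was profiled by RNA sequencing. Wild type males and females and *Ptk6*-/- males and females received either regular water or 100 mM succinate for 7 days, and all were 9 to 11 weeks old at the end. *Ptk6*-/- is a germline disruption present in every cell, bred onto C57BL/6, with wild type mice from the same colony, so an effect of genotype need not arise in the epithelium. The labels number the mice of a group as biological replicates, with 1 library each.

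Total counts per library ranged from 8080321 to 52824743 with a median of 43017686.5, and *Ptk6* itself had 7 to 61 counts in the *Ptk6*-/- libraries and 284 to 2405 in the wild type libraries. A subset of 3 libraries stood apart. Replicate 1 of the male *Ptk6*-/- succinate group had the lowest total, with 29.7% of its counts on the 18S ribosomal RNA gene *Rn18s-rs5*, and replicate 1 of the male wild type controls had 51.2% there. Replicate 2 of the female wild type succinate group held heart muscle transcripts, with a summed 17340 CPM (counts scaled to library size with TMM factors) over 8 heart genes. The main values below include these libraries, and values without them are given where named. The 12 enterocyte markers summed to 7091 to 35180 CPM, the 20 distal small intestine markers to 4162 to 18940 CPM and the 22 proximal ones to 5637 to 15800 CPM, which shows small intestine but does not test the position along it that the label gives. RNA of whole tissue was sequenced, so fewer cells of a type and less RNA per cell cannot be told apart.

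The positions below are those of the deposited table, for which the submitters' notes name GRCm39. *Slc10a2* (ENSMUSG00000023073) spans positions 5133219 to 5155351 of chromosome 8, and *Fabp6* (ENSMUSG00000020405) spans 43486876 to 43492367 of chromosome 11. *Slc51a* (ENSMUSG00000035699) lies on chromosome 16 from 32293322 to 32306697, and *Slc51b* (ENSMUSG00000053862) on chromosome 9 from 65319996 to 65330237. *Nr1h4* (ENSMUSG00000047638) covers 89290096 to 89369447 of chromosome 10, *Fgf15* (ENSMUSG00000031073) 144450268 to 144454690 of chromosome 7, and *Nr0b2* (ENSMUSG00000037583) 133280687 to 133283847 of chromosome 4. All 7 are listed as protein-coding. *Slc51a* overlaps *Pcyt1a*, *Slc51b* overlaps *Rasl12*, and *Fgf15* overlaps *Gm26793* and *Gm39119*, each on the other strand. The libraries were stranded, but whether the counting used strand is not given in the sources used here, so counts of these 3 genes could include reads of their partners.

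Promoter sequence was taken from RefSeq (GRCm38.p6), whose table held an entry for 6 of the 7 genes. *Fabp6*, *Slc51a* and *Slc51b* are shown because their CPM values moved together across libraries, as described below. Each line is the 250 bases before the transcription start, 5′ to 3′ on the gene's strand, with matches in capitals. The first motif was the inverted repeat GGTNANTNACC, the form of FXR response element searched here, which reads the same on both strands. The second was CAAGGNCA on either strand (TGNCCTTG on the other), the form bound by NR5A2, and the motifs did not overlap in these sequences.
Fabp6, chr11:43601563-43601812, minus strand: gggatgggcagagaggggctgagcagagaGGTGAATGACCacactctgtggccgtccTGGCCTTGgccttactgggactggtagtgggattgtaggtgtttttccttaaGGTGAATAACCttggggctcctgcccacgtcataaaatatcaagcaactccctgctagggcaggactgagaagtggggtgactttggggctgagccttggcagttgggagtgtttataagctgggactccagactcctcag
Slc51b, chr9:65422774-65423023, minus strand: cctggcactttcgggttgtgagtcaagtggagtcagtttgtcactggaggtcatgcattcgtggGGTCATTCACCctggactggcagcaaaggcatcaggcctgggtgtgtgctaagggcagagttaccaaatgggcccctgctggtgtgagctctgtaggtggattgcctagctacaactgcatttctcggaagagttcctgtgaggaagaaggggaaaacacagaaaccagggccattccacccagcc
Slc51a, chr16:32487880-32488129, minus strand: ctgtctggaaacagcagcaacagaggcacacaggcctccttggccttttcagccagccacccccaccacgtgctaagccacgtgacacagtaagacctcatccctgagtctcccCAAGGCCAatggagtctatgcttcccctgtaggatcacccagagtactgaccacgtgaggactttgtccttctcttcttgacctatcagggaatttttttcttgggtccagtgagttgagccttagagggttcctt

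The inverted repeat occurred at 221 and at 141 bases before the start of *Fabp6* and at 186 bases before that of *Slc51b*. Among all 32851 promoters of the table, read from 250 bases before to 50 after the start, 86 (0.262%) held it. The NR5A2 form occurred 193 bases before *Fabp6*, 136 before *Slc51a* and 201 before *Nr0b2*, and in 6.71% of all promoters. These letters were not in the windows of *Slc10a2* and *Nr1h4*. A match is a description of the sequence only.

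On a scale corrected for gene length, *Fabp6* was by far the most abundant of the 7, with a median of 1380 FPKM (the deposited unit, scaled by the authors to gene length and sequencing depth) over the 24 libraries. *Slc51b* followed at 187.4 FPKM and *Slc51a* at 111.6 FPKM. *Nr1h4* had a median of 23.5 FPKM, *Fgf15* 10.96 FPKM and *Slc10a2* 9.30 FPKM. *Nr0b2* was barely detected at a median of 0.269 FPKM, with 0 counts in 5 libraries and at least 10 counts in 14. The gene for the transporter that brings bile acids in thus lay far below those of the binding protein and both exporter subunits on the FPKM scale.

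**Figure D1:**
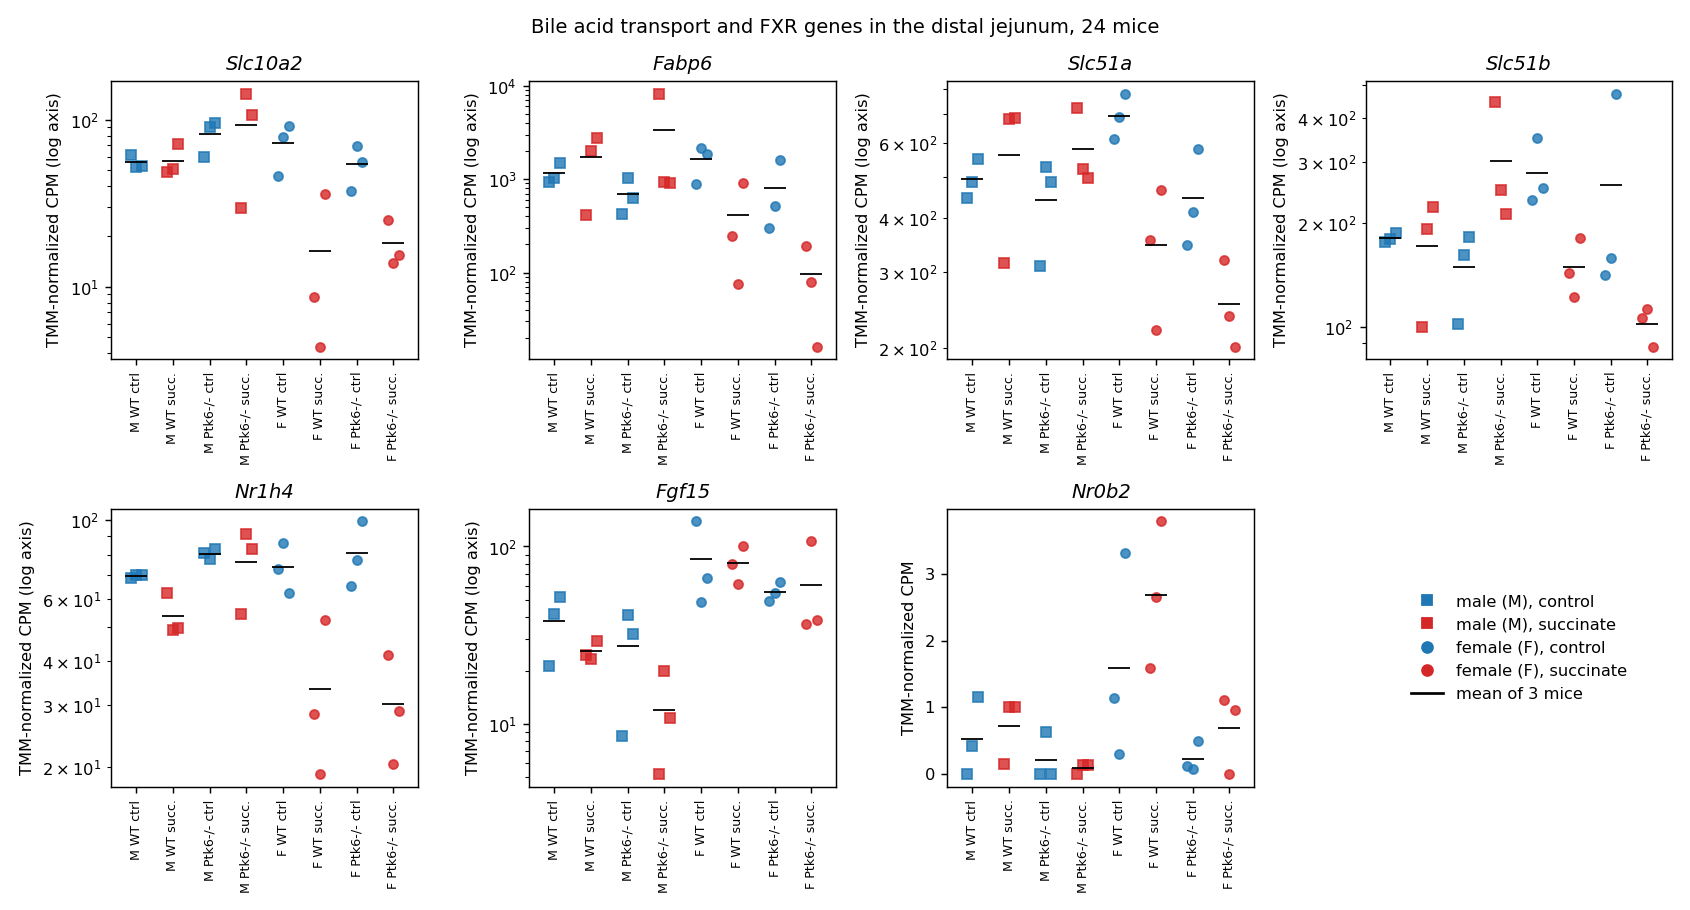
TMM-normalized CPM of the 7 genes in each of the 24 mice, by sex (M, F), genotype (WT, Ptk6-/-) and treatment, on a log axis except for Nr0b2, with squares for males, circles for females, blue for control, red for succinate and a bar for the mean of 3 mice. The female succinate groups have the lowest means for Slc10a2, Fabp6, Slc51a and Nr1h4, and the male Ptk6-/- succinate mouse with the lowest total has the highest Fabp6 value, 8220 CPM.

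The range over group means differed from gene to gene. *Fabp6* had the widest range of the well-measured genes, from 96.8 ± 90.5 CPM (SD, n = 3) in female *Ptk6*-/- succinate mice to 3356 ± 4212 CPM (SD, n = 3) in male *Ptk6*-/- succinate mice. The latter mean rested on 1 of the libraries that stood apart. Without it the mean of the other 2 mice was 924.3 CPM, and the highest mean was 1734 CPM in male wild type succinate mice, 17.9 times the lowest. *Slc10a2* ranged from 16.3 ± 17.1 CPM (SD, n = 3) in female wild type succinate mice to 92.7 ± 57.9 CPM (SD, n = 3) in male *Ptk6*-/- succinate mice. The corresponding ratio of highest to lowest group mean was 2.74 for *Slc51a*, 2.96 for *Slc51b* and 2.66 for *Nr1h4*. *Fgf15* had its highest mean, 84.5 ± 47.6 CPM (SD, n = 3), in female wild type controls and its lowest, 11.95 ± 7.34 CPM (SD, n = 3), in male *Ptk6*-/- succinate mice. Without the libraries that stood apart the highest mean was in female wild type controls for *Slc51b* (278.5 CPM), in male *Ptk6*-/- succinate mice for *Nr1h4* (87.1 CPM) and in female wild type succinate mice for *Fgf15* (90.1 CPM), and the lowest mean of *Slc10a2* was in female *Ptk6*-/- succinate mice (18.1 CPM). When the 8 groups were ordered by their means over all libraries, at most 1 of the 7 pairs of neighbours was separated for any gene. The separated neighbours were female *Ptk6*-/- control over female *Ptk6*-/- succinate for *Slc10a2*, male wild type control over male wild type succinate for *Nr1h4*, male wild type succinate over male *Ptk6*-/- succinate for *Fgf15*, and female wild type succinate over female *Ptk6*-/- succinate for *Slc51b*.

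Succinate was compared with regular water first in females. In both genotypes the values of *Slc10a2*, *Fabp6*, *Slc51a*, *Slc51b* and *Nr1h4* were lower after succinate, with no overlap between treated and control mice for most of them. None passed the test, which was edgeR's quasi-likelihood test with a Benjamini-Hochberg adjusted p under 0.05 over all genes and a fold change of at least 2. SE below is the standard error of the log2 fold change.

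*Slc10a2*, the uptake transporter, had 45.7, 79.1 and 91.2 CPM in the female wild type controls and 8.62, 4.37 and 35.9 CPM after succinate. In female *Ptk6*-/- mice it had 37.6, 69.8 and 55.5 CPM on water and 25.1, 13.9 and 15.5 CPM on succinate. Every female on succinate lay below every female on water, and the third wild type succinate mouse was the highest of the treated. *Slc10a2* had a log2 fold change of -2.12 (SE 0.74, adjusted p = 0.617 by edgeR) in wild type and -1.61 (SE 0.34, adjusted p = 0.251 by edgeR) in *Ptk6*-/- females.

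*Fabp6*, the cytosolic carrier, had 895, 2142 and 1864 CPM in the female wild type controls and 245, 74.8 and 917 CPM after succinate. The *Ptk6*-/- females had 296, 519 and 1610 CPM on water and 195, 79.5 and 16.2 CPM on succinate. The wild type groups overlapped through the third succinate mouse, and the *Ptk6*-/- groups did not overlap. The log2 fold changes of *Fabp6* were -1.97 (SE 0.85, adjusted p = 0.638 by edgeR) and -3.10 (SE 0.96, adjusted p = 0.398 by edgeR).

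Both subunits of the basolateral exporter were lower as well. *Slc51a* had 612, 687 and 780.5 CPM in wild type controls and 356, 221 and 466 CPM after succinate, and in *Ptk6*-/- females 346, 415 and 581 CPM against 321, 238 and 201 CPM. *Slc51b* had 233, 351 and 252 CPM against 143, 122 and 180.5 CPM in wild type, and 141, 158 and 471 CPM against 106, 112 and 87.8 CPM in *Ptk6*-/- females. In neither genotype did treated and control females overlap for either subunit, and the third *Ptk6*-/- control stood well above its group for both. The log2 fold changes were -0.98 and -0.85 for *Slc51a* and -0.89 and -1.36 for *Slc51b*, in wild type and *Ptk6*-/- females.

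*Nr1h4*, which encodes FXR, had 72.9, 86.2 and 62.3 CPM in wild type controls and 28.3, 19.1 and 52.2 CPM after succinate. Among *Ptk6*-/- females it had 65.3, 77.2 and 99.3 CPM on water and 41.5, 20.4 and 28.9 CPM on succinate. All 6 females on water lay above all 6 on succinate. The log2 fold changes were -1.13 (SE 0.39, adjusted p = 0.617 by edgeR) and -1.44 (SE 0.33, adjusted p = 0.271 by edgeR).

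Of the 7 genes, 4 were lower without overlap in wild type females, against 7.32% of the 18872 genes tested, and 5 were in *Ptk6*-/- females, against 10.1% of 19334. The calls were 0 of 7 in wild type females, where 0% of all genes were called, and 0 of 7 in *Ptk6*-/- females, where 0.0879% were. At an unadjusted p under 0.05 there were 4 of 7 (7.77% of all genes) and 5 of 7 (10.7%). With 3 mice a side, 0.1 is the smallest p of an exact permutation test. DESeq2 called no member in wild type females, and *Slc10a2*, *Fabp6* and *Nr1h4* in *Ptk6*-/- females, with adjusted p of 0.00456, 0.0126 and 0.0108, in a fit that called 433 genes where edgeR called 17. Without replicate 3 of the wild type succinate females, edgeR called *Slc10a2* (log2 fold change -3.42, adjusted p = 0.0203) and *Nr1h4* (-1.59, adjusted p = 0.0377) in wild type females, in a fit that called 597 genes where that with all libraries called 0. Without the library that held heart muscle transcripts, the log2 fold changes in wild type females were -1.67 for *Slc10a2*, -1.47 for *Fabp6*, -0.73 for *Slc51a*, -0.76 for *Slc51b* and -0.85 for *Nr1h4*, each with an edgeR adjusted p of 1.

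**Figure D2:**
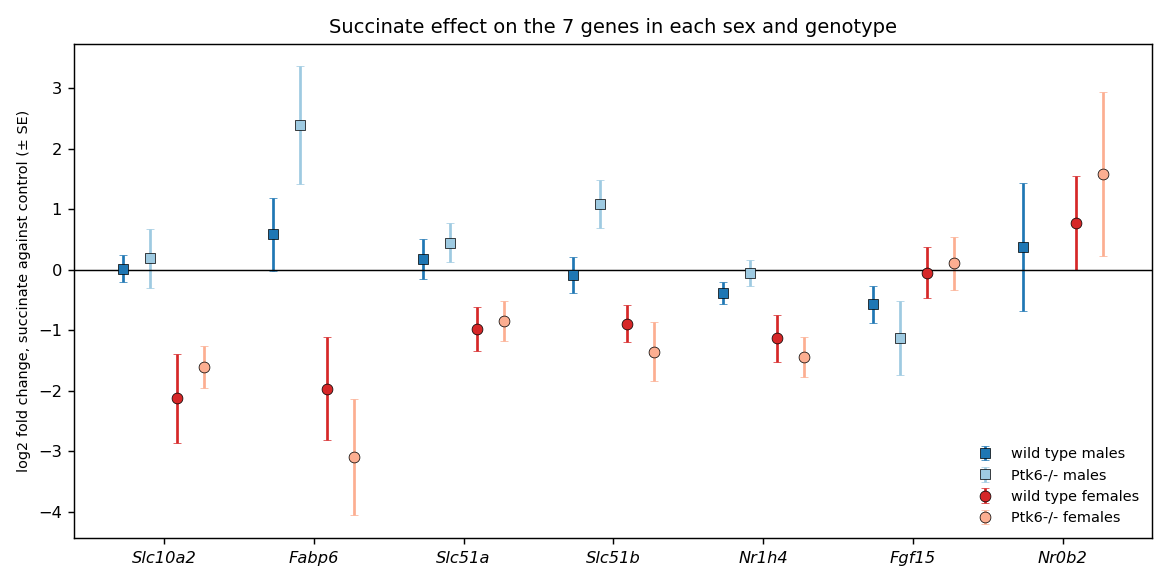
Log2 fold change of each gene, succinate against control, in the 4 combinations of sex and genotype, with bars for the standard error of edgeR's fit (3 mice against 3). Values for females are negative for Slc10a2, Fabp6, Slc51a, Slc51b and Nr1h4 and near 0 for Fgf15, values for males scatter around 0 or above for the 4 transport genes, and Nr0b2 was not tested in Ptk6-/- males.

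The 12 females were then compared as a whole, by the mean of the succinate effects in both genotypes, a comparison added after the values were seen. *Nr1h4* was 2.42-fold lower after succinate (log2 fold change -1.27, SE 0.27, adjusted p = 0.0577 by edgeR), and *Slc10a2* was 3.61-fold lower (-1.85, SE 0.45, adjusted p = 0.0930). *Fabp6* had a log2 fold change of -2.51 (SE 0.71, adjusted p = 0.150), *Slc51b* of -1.11 (SE 0.30, adjusted p = 0.127) and *Slc51a* of -0.90 (SE 0.24, adjusted p = 0.129). *Slc10a2* and *Nr1h4* did not overlap between treated and control females, where 0.648% of 20531 genes were lower without overlap. None of the 7 was called, against 0.779% of all genes, and 5 of 7 had an unadjusted p under 0.05, against 13.3%.

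This count changed with the tool and with the library left out, as did the number of all genes called, which was 160 in the fit above. DESeq2 called 4 of the 7 genes, *Slc10a2*, *Fabp6*, *Slc51b* and *Nr1h4*, with adjusted p of 0.00164, 0.00291, 0.0119 and 0.000642, among 637 genes in all. Without replicate 3 of the wild type succinate females, edgeR called 4, *Slc10a2*, *Fabp6*, *Slc51a* and *Nr1h4*, with adjusted p of 0.00193, 0.0274, 0.0303 and 0.00628, among 940 genes. Without replicate 1 of the *Ptk6*-/- succinate females it called *Nr1h4* (log2 fold change -1.42, adjusted p = 0.0438), among 191 genes. With all 24 libraries in the fit edgeR called *Slc10a2*, *Slc51b* and *Nr1h4*, among 446 genes. Without the female library that stood apart none was called, and the log2 fold changes of these 5 genes lay between -2.26 for *Fabp6* and -0.77 for *Slc51a*.

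Summed levels of region and cell type markers are given for the same females. No distal or enterocyte marker was at 0 counts in any library. The summed level of 20 distal small intestine markers was 10900 to 18870 CPM in the 6 control females and 4162 to 15770 CPM in the 6 on succinate. All 20 had negative log2 fold changes over the 12 females, with a median of -1.13 against 0.016 for all genes tested, of which 48.5% were negative, and 1 was called lower, against 0.166% of all genes. The highest treated value, 15770 CPM, belonged to replicate 3 of the wild type succinate group. The 12 enterocyte markers summed to 19400 to 35180 CPM on water and 7091 to 24090 CPM on succinate, with 11 negative, a median of -0.69 and none called. The 22 proximal markers had a median of -0.45, with 15 negative and 1 called lower. Their sums were 5637 to 11220 CPM (median 9714) on water and 6902 to 15800 CPM (median 9773) on succinate.

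Tuft cell markers summed to 57.8 to 85.9 CPM in control females and to 148 to 451 CPM on succinate, and 10 of 12 were called higher, against 0.614% of all genes, with a median log2 fold change of 2.83. At most 1 of the 12 tuft genes was at 0 counts in any control female, and none was in the treated. Smooth muscle markers had a median of 0.57 with none of 8 called. The part of these markers in the lower levels of the bile acid genes was not tested.

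In males the uptake, export and receptor genes overlapped between treatments in most comparisons, and the highest values of *Fabp6* and *Slc51b* came from 1 library. *Slc10a2* had 61.7, 52.1 and 52.6 CPM in wild type controls and 48.4, 50.4 and 71.2 CPM after succinate. Among *Ptk6*-/- males it had 59.6, 89.9 and 95.9 CPM on water and 29.3, 143 and 106 CPM on succinate. The groups overlapped in both genotypes, and the log2 fold change over all males was 0.12 (SE 0.29, adjusted p = 0.894 by edgeR).

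*Fabp6* had 943, 1036 and 1488 CPM in male wild type controls and 408, 2021 and 2774 CPM after succinate. The *Ptk6*-/- males had 429, 1027 and 634 CPM on water and 8220, 937 and 912 CPM on succinate. The value of 8220 CPM came from the library with the lowest total and rested on 29980 counts. In this genotype the log2 fold change was 2.39 (SE 0.97, adjusted p = 0.600 by edgeR), and without that library it was 0.39 (adjusted p = 0.648).

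The same library carried the highest male value of *Slc51b*, 446 CPM. *Slc51b* had 102, 162 and 182 CPM in *Ptk6*-/- control males and 446, 248 and 211 CPM after succinate, without overlap, where 23% of 18966 genes did not overlap. Its log2 fold change was 1.09 (SE 0.39, adjusted p = 0.600 by edgeR), and without that library it was 0.61 (adjusted p = 0.441). *Fabp6* and *Slc51b* are short genes, at the 6.47 and 11 percentile of gene length, and the slope of log2 counts on gene length was -0.125 in this library, where the 24 libraries ranged from -0.125 to 0.139. Slopes were nearly as low, -0.124 and -0.117, in replicate 2 of the female *Ptk6*-/- and replicate 1 of the female wild type succinate groups, where *Fabp6* was at 79.5 and 245 CPM. The part of gene length in the values of this library was not tested. With an offset for the trend with length the log2 fold changes in *Ptk6*-/- males were 1.72 for *Fabp6* and 0.70 for *Slc51b*, and with limma on log2(FPKM + 1) that of *Slc51b* was 0.29.

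*Nr1h4* was lower without overlap in wild type males, at 68.6, 69.9 and 70.2 CPM on water and 62.4, 48.8 and 49.4 CPM on succinate, where 4.15% of 19183 genes were lower without overlap. The log2 fold change was -0.39 (SE 0.18, adjusted p = 0.947 by edgeR). *Nr1h4* levels of *Ptk6*-/- males were 80.8, 77.7 and 83.2 CPM on water and 54.3, 91.4 and 82.9 CPM on succinate, and they overlapped. *Slc51a* overlapped in both genotypes of males, with 311 to 722 CPM over the 12.

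The summed distal markers were 12360 to 18940 CPM in the 6 control males and 7794 to 16080 CPM in the 6 on succinate, with the lowest value in the library of the lowest total. Tuft markers summed to 65.8 to 72.1 CPM on water and 52.1 to 136 CPM on succinate. The part of these markers in the male values was not tested.

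No member was called by edgeR or DESeq2 in either genotype of males, where edgeR called 0% of all genes. At an unadjusted p under 0.05 there were 0 of 7 in wild type males (4.07% of all genes) and 2 of the 6 tested in *Ptk6*-/- males (7.75%). Without replicate 1 of the wild type succinate males, edgeR called *Fabp6* in wild type males (log2 fold change 1.02, adjusted p = 0.0339), in a fit that called 1077 genes where that with all libraries called 0. Over all 12 males, a comparison added after the values were seen, none of the 7 was called either (0% of 20340 genes), and 2 of 7 had an unadjusted p under 0.05 (9.2% of all genes), *Fabp6* (log2 fold change 1.48, adjusted p = 0.539 by edgeR) and *Fgf15* (-0.84, adjusted p = 0.539 by edgeR). DESeq2 called none as well. Without the libraries that stood apart, *Fabp6* had a log2 fold change of 0.43 in males.

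Whether the succinate effect differed between the sexes was tested as an interaction over the 24 mice, also added after the values were seen. *Fabp6* had a difference of -3.95 on the log2 scale, female minus male effect (SE 0.98, adjusted p = 0.177 by edgeR), and *Slc51b* of -1.59 (SE 0.40, adjusted p = 0.183). The differences were -1.20 for *Slc51a*, -1.97 for *Slc10a2* and -1.05 for *Nr1h4*, with edgeR adjusted p of 0.214, 0.229 and 0.239. Of the 7 genes, 5 had an unadjusted p under 0.05, all with a lower effect in females, against 4.28% of 21694 genes in that direction and 8.27% in either. None was called, against 0.0738% of all genes.

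DESeq2 called 4 for this interaction, *Slc10a2*, *Fabp6*, *Slc51a* and *Slc51b*, with adjusted p of 0.0439, 0.0103, 0.0346 and 0.0205, among 207 genes in all where edgeR called 16. Without replicate 3 of the wild type succinate females, edgeR called 3, *Slc10a2*, *Fabp6* and *Nr1h4*, with adjusted p of 0.00849, 0.029 and 0.026, among 163 genes. Without the libraries that stood apart the difference was -2.71 for *Fabp6* (adjusted p = 0.430) and -1.32 for *Slc51b* (adjusted p = 0.413), and none was called.

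The succinate effect was also taken as the mean over both sexes and genotypes. *Nr1h4* passed the adjusted p without reaching 2-fold. It had 62.3 to 99.3 CPM (median 75.1) in the 12 controls and 19.1 to 91.4 CPM (median 49.1) in the 12 succinate mice, which overlapped. Its log2 fold change was -0.75 (SE 0.15, adjusted p = 0.0179 by edgeR), and the adjusted p ranged from 0.000364 with DESeq2 to 0.387 with limma on FPKM without a filter. By sex the value was -1.27 in all females and -0.21 in all males (edgeR adjusted p = 0.0577 and 0.641). Without the libraries that stood apart it was -0.63 over all mice (adjusted p = 0.0516 by edgeR). Among all 21694 genes, 1.03% had an adjusted p under 0.05. None of the 7 was called by edgeR or DESeq2, against 0.728% of all genes by edgeR, and 2 had an unadjusted p under 0.05, against 16.1%. *Slc10a2* had a log2 fold change of -0.88 (SE 0.28, adjusted p = 0.152 by edgeR), and the other transport genes lay between -0.55 and -0.31. Without replicate 3 of the wild type succinate females, *Slc10a2* was called by edgeR (-1.21, adjusted p = 0.00336), among 539 genes where the fit with all libraries called 158.

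*Fgf15*, the hormone by which the gut signals to the liver, was the one gene of the 7 called in any main comparison, and the comparison was that of females with males. Males had 5.21 to 51.8 CPM (median 23.9, n = 12) and females 36.65 to 138.5 CPM (median 62.2, n = 12), which overlapped. *Fgf15* was 2.90-fold higher in females (log2 fold change 1.53, SE 0.27, adjusted p = 0.0098 by edgeR). This was 1 of 7 genes, against 0.36% of 21694 called, and 4 of 7 had an unadjusted p under 0.05, against 15.3%. *Fgf15* was called in each of the 24 fits that left out 1 library and in each of 10 other settings, with an adjusted p up to 0.0408.

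By group, *Fgf15* had 21.1, 41.5 and 51.8 CPM in male wild type controls, 24.6, 23.1 and 29.2 CPM in male wild type succinate mice, 8.56, 41.2 and 32.3 CPM in male *Ptk6*-/- controls and 5.21, 19.8 and 10.9 CPM in male *Ptk6*-/- succinate mice. The lowest value rested on 19 counts of the shallowest library. The females had 138.5, 48.5 and 66.5 CPM in wild type controls and 79.9, 61.5 and 100.2 CPM with succinate, and in *Ptk6*-/- 49.5, 54.7 and 63.0 CPM in controls and 36.65, 108 and 38.6 CPM with succinate. Treated and control females overlapped in both genotypes, and over all females the log2 fold change of *Fgf15* was 0.03 (SE 0.32, adjusted p = 0.984 by edgeR).

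*Fabp6*, *Slc10a2* and *Nr1h4* had negative values in the comparison of the sexes, with log2 fold changes, females against males, of -1.62 for *Fabp6* (adjusted p = 0.140 by edgeR), -1.09 for *Slc10a2* (adjusted p = 0.0873) and -0.48 for *Nr1h4* (adjusted p = 0.151). *Slc51a* had a value of -0.34 (adjusted p = 0.328) and *Slc51b* of -0.09 (adjusted p = 0.872), which was positive under 4 of the alternatives. None of these was called by edgeR. DESeq2 called *Slc10a2* (adjusted p = 0.0059) and *Fabp6* (adjusted p = 0.0256) beside *Fgf15*, among 323 genes in all where edgeR called 78. Without replicate 3 of the female wild type succinate group, edgeR called the same pair (adjusted p = 0.00189 and 0.028), among 427 genes, and without replicate 1 of the male *Ptk6*-/- succinate group it called *Slc10a2* (adjusted p = 0.039), among 78 genes. On water alone the ranges of *Slc10a2* were 52.1 to 95.9 CPM in 6 males and 37.6 to 91.2 CPM in 6 females. There *Fabp6* had a mean of 926 CPM in males and 1221 CPM in females, and *Nr1h4* of 75.1 and 77.2 CPM. The means were 467 and 570 CPM for *Slc51a* and 164 and 268 CPM for *Slc51b*. Without the libraries that stood apart, the log2 fold change of *Fabp6* for sex over all mice was -1.04 (adjusted p = 0.267 by edgeR).

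*Nr0b2*, the gene for the co-repressor SHP, was near the limit of detection. The 5 libraries without a count were 4 of males and 1 of a female, and 3 counts, the level that a count of 0 allows, correspond to 0.055 to 0.822 CPM in them. Counts reached 150 in a female wild type control and 147 in a female wild type succinate mouse. *Nr0b2* was not tested for the succinate effect in *Ptk6*-/- males or the genotype effect in succinate males, because too few libraries had 10 counts. Females had 0 to 3.79 CPM (median 1.04) and males 0 to 1.15 CPM (median 0.150), with a log2 fold change of 1.48 (SE 0.72, adjusted p = 0.328 by edgeR). After succinate its log2 fold changes were positive in females, 0.78 (SE 0.78, adjusted p = 0.831 by edgeR) in wild type and 1.58 (SE 1.36, adjusted p = 0.702 by edgeR) in *Ptk6*-/- mice, with treated and control values that overlapped in both.

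The effect of *Ptk6* disruption was compared in each sex and treatment. No member was called by edgeR or DESeq2. The share of all genes called by edgeR was 0.739% of 19218 genes in control males, 0.0158% of 19035 in control females, and 0% in succinate males and in succinate females. Members with an unadjusted p under 0.05 were 2 of 7 in control males (25.2% of all genes), 1 of 7 in control females (11.1%), 1 of the 6 tested in succinate males (2.72%) and 0 of 7 in succinate females (4.52%). In control males *Slc10a2* was higher in *Ptk6*-/- mice (log2 fold change 0.54, adjusted p = 0.127 by edgeR) and *Fabp6* lower (-0.74, adjusted p = 0.192 by edgeR), and without the library that stood apart the values were 0.66 and -0.84. *Nr1h4* was higher without overlap in these males, 1 of 7 against 31.3% of all genes without overlap, with a log2 fold change of 0.19 (adjusted p = 0.272 by edgeR).

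In control females *Slc51a* was lower without overlap in *Ptk6*-/- mice, where 10.3% of all genes were, with a log2 fold change of -0.60 (SE 0.29, adjusted p = 0.472 by edgeR). *Nr0b2* had 52, 14 and 150 counts in wild type and 5, 4 and 17 in *Ptk6*-/- controls, with a log2 fold change of -2.77 (SE 1.00, adjusted p = 0.397 by edgeR). That value ranged from -3.88 to -1.62 with 1 library left out and from -2.79 to -0.714 under the other alternatives. Without replicate 3 of the *Ptk6*-/- control females, *Fabp6* was called (log2 fold change -1.96, adjusted p = 0.0325 by edgeR), in a fit that called 1808 genes in all.

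Over all 24 mice *Nr0b2* had 0 to 3.79 CPM (median 1.08) in wild type and 0 to 1.12 CPM (median 0.126) in *Ptk6*-/- mice. Its log2 fold change was -2.16 (SE 0.72, adjusted p = 0.294 by edgeR), and that of *Fgf15* was -0.64 (SE 0.27, adjusted p = 0.340). These 2 of 7 had an unadjusted p under 0.05, against 13.4% of all genes, and none was called, against 0.0184%. In succinate males *Fgf15* was lower without overlap in *Ptk6*-/- mice, where 5.89% of genes were (log2 fold change -1.06, adjusted p = 1 by edgeR), with a value of -0.77 without the library of the lowest total. In succinate females *Slc51b* and *Nr0b2* were lower without overlap, where 4.45% of genes were, with edgeR adjusted p of 0.931 for both.

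Whether *Ptk6* disruption altered the response to succinate was tested as an interaction in each sex. None of the 7 was called by edgeR or DESeq2 in males or in females, where edgeR called 0% of all genes. An unadjusted p under 0.05 was found for 1 of 7 in males (3.8% of all genes) and 0 of 7 in females (6.46%). The smallest unadjusted p was that of *Slc51b* in males, with a difference of 1.17 on the log2 scale (SE 0.52, adjusted p = 0.993 by edgeR), which was 0.69 without the libraries that stood apart and 0.07 with limma on log2(FPKM + 0.1). The same fit for females recovered few of the changes put into simulated data, so the absence of calls there says little. In females the differences of *Slc10a2*, *Fabp6* and *Nr1h4* were 0.54, -1.08 and -0.27, each smaller than its own SE of 0.87, 1.35 and 0.53. In controls, the difference between the sexes in the genotype effect was -0.91 for *Slc10a2* (SE 0.40, adjusted p = 0.999 by edgeR), the 1 of 7 with an unadjusted p under 0.05 (4.64% of all genes), with none called by either tool and 0% of all genes called by edgeR.

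Beyond the 7, a list of 36 other genes of bile acid sensing, transport and synthesis was examined, of which 35 had counts and 32 could be tested over all mice. Lower values after succinate prevailed, with 26 of 32 negative and a median log2 fold change of -0.34, against 50.3% negative and a median of 0.00 for all genes. At an unadjusted p under 0.05 there were 16 lower and 1 higher, where 6.94% of all genes were lower and 9.17% higher, and none was called. *Cyp27a1*, which starts the alternative route of bile acid synthesis, passed the adjusted p short of 2-fold. It had 25.7 to 86.5 CPM (median 34.3) in the 12 controls and 5.54 to 31.4 CPM (median 20.9) in the 12 succinate mice (log2 fold change -0.94, SE 0.21, adjusted p = 0.0298 by edgeR).

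*Abcg5* and *Abcg8*, the partner genes of the sterol exporter of the apical membrane, came next by p. *Abcg5* had a median of 225 CPM on water and 124 CPM on succinate (log2 fold change -0.70, adjusted p = 0.137 by edgeR), and *Abcg8* of 186 and 92.9 CPM (-0.85, adjusted p = 0.146). The other lower genes included those of the nuclear receptors *Nr1i2* (-0.45), *Vdr* (-0.47) and *Nr5a2* (-0.29) and of *Hnf4a* (-0.48), none with an adjusted p under 0.05. *Cyp7b1*, another hydroxylase of that route, was the 1 gene higher at an unadjusted p under 0.05 (0.59, adjusted p = 0.205 by edgeR).

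In the comparison of the sexes none of the 32 was called, and 26 had a negative log2 fold change, against 46.9% of all genes. The smallest p were those of *Rxra*, the partner of FXR in DNA binding (log2 fold change -0.39, adjusted p = 0.124 by edgeR), the vitamin D receptor gene *Vdr* (-0.59, adjusted p = 0.138) and the basolateral exporter gene *Abcc3* (-0.59, adjusted p = 0.151). For genotype none was called. The smallest p were those of *Abcc3*, higher in *Ptk6*-/- mice (0.57, adjusted p = 0.291 by edgeR), *Abcb4*, the phospholipid flippase gene (-1.11, adjusted p = 0.327), and *Cyp27a1* (-0.47, adjusted p = 0.348). *Abcb4* had 221 counts in the library with heart muscle transcripts and at most 36 in any other. For the difference of the succinate effect between the sexes, the smallest p were those of *Nr1h3*, the gene of the oxysterol receptor LXR alpha (-0.99, adjusted p = 0.265 by edgeR), *Cyp3a13* (-0.71, adjusted p = 0.545) and *Cyp27a1* (-0.94, adjusted p = 0.545).

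How the 7 genes varied together was measured over the 24 libraries, as Pearson's r and Spearman's rho of log2(CPM + 1) with permutation p adjusted over 35 relations, 21 between members and 14 with regional marker lists. *Fabp6*, *Slc51a* and *Slc51b* formed the tightest set on the CPM scale. *Fabp6* and *Slc51a* had r = 0.940 and rho = 0.917 (permutation adjusted p = 5.83e-05 and 0.000117), *Slc51a* and *Slc51b* r = 0.834 and rho = 0.920, and *Fabp6* and *Slc51b* r = 0.807 and rho = 0.833. Without the 2 libraries farthest from the median these were 0.919, 0.820 and 0.802, and centred on group means 0.898, 0.794 and 0.782. In males they were 0.884, 0.840 and 0.867, and in females 0.963, 0.868 and 0.880. With log2(FPKM + 1) over the 24 libraries the same pairs had lower r, of 0.696, 0.790 and 0.656. On that scale *Slc10a2* had r = 0.899 with *Nr1h4* and 0.765 with *Slc51a*. The smallest p that the permutations could give was 1e-05, or 5.83e-05 after adjustment.

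*Slc10a2* and *Nr1h4* made the other close pair, with r = 0.897 and rho = 0.782 (permutation adjusted p = 5.83e-05 and 0.00035), 0.832 without the 2 farthest libraries and 0.778 centred on group means. Between these sets r was positive in females and negative in males for each pair, a difference that was not tested. *Fabp6* and *Nr1h4* had r = 0.644 over all 24 libraries and rho = 0.380 (permutation adjusted p = 0.00381 and 0.124), but r = 0.822 in females and -0.641 in males. *Fabp6* and *Slc10a2* had 0.784 in females and -0.460 in males, where it was -0.0423 without the male libraries that stood apart. The r of *Fabp6* with *Nr1h4* in males was -0.607 without them. *Slc10a2* had r of -0.107 with *Slc51a* and -0.111 with *Slc51b* in males, which were 0.184 and 0.550 without them.

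Of the 21 pairs, 10 had an adjusted p under 0.05 and 4 did when values were centred on group means, namely those of the preceding sets. *Fgf15* stood outside, with r of -0.326 to -0.112 to the transport genes and *Nr1h4* (0.006 to 0.306 centred on group means), and reached an adjusted p under 0.05 with *Nr0b2* alone (r = 0.531, rho = 0.533, permutation adjusted p = 0.0213 and 0.0314). That relation was 0.456 without the 2 farthest libraries and 0.159 centred on group means.

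**Figure D3:**
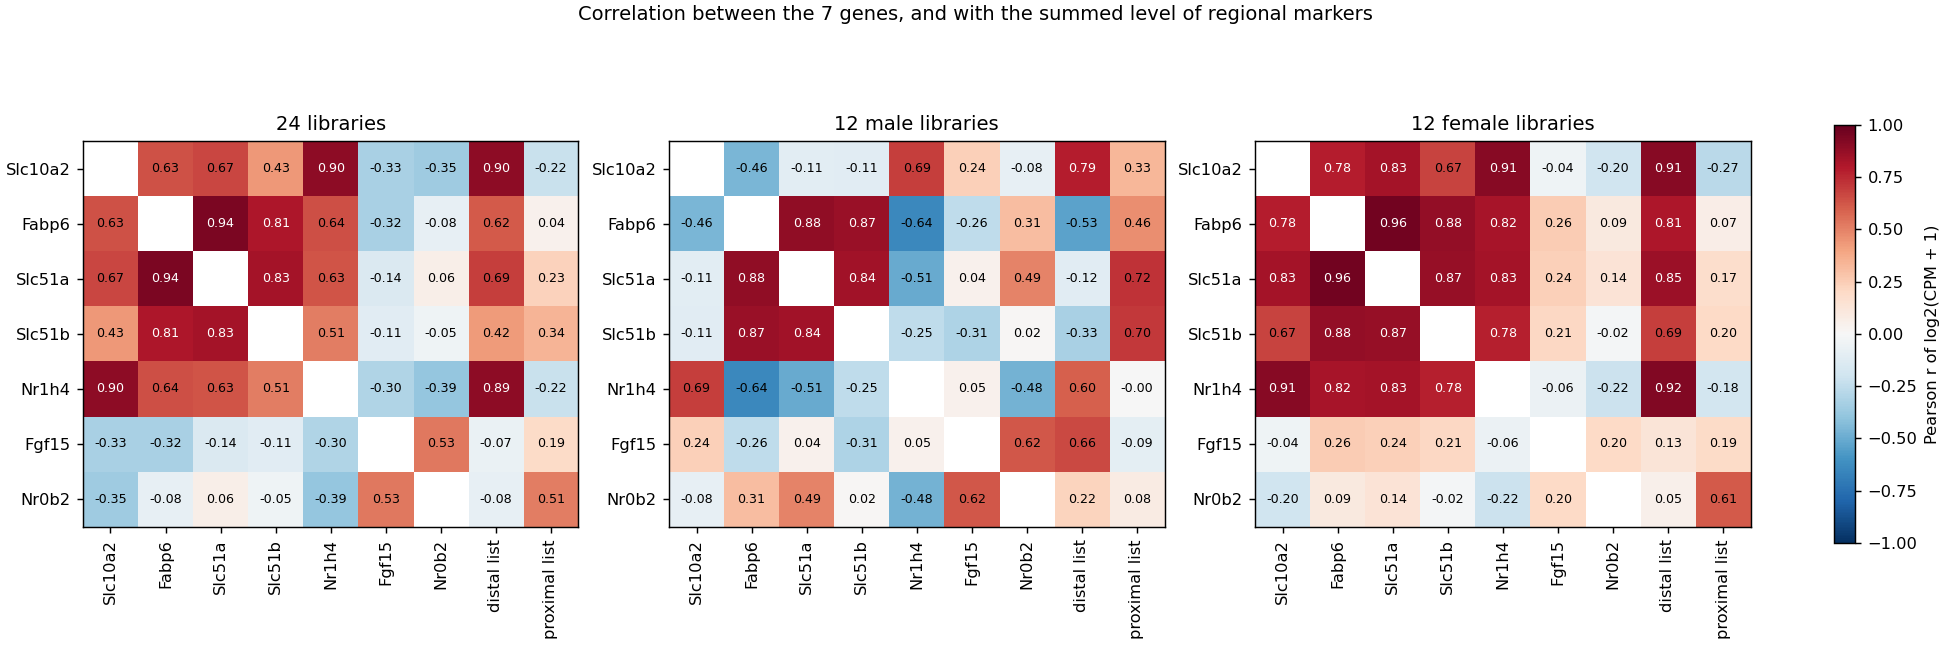
Pearson r of log2(CPM + 1) between the 7 genes and with the summed level of 20 distal and 22 proximal markers, over 24 libraries, 12 male and 12 female libraries, from -1 (blue) to 1 (red). The block of Fabp6, Slc51a and Slc51b is red in all panels, and the cells that join Fabp6 with Nr1h4 and Slc10a2 are red in females (0.822 and 0.784) and blue in males (-0.641 and -0.460).

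Levels were set against markers of position along the gut in the same way. *Slc10a2* followed the summed distal markers with r = 0.896 and rho = 0.732 (permutation adjusted p = 5.83e-05 and 0.00049), and *Nr1h4* with r = 0.894 and rho = 0.699 (permutation adjusted p = 5.83e-05 and 0.00152). Centred on group means these were 0.862 and 0.803, and without the 2 farthest libraries 0.828 and 0.788. *Slc10a2* had 0.786 in males and 0.911 in females, and *Nr1h4* 0.600 and 0.924. *Fabp6* had r = 0.616 over all libraries (permutation adjusted p = 0.00499), 0.811 in females and -0.533 in males, where it was 0.0774 without the libraries that stood apart. The distal and enterocyte sums can vary together. In wild type succinate females the distal sums were 6039, 4162 and 15770 CPM and the enterocyte sums 10500, 7091 and 24090 CPM. The members were not set against the enterocyte list, and the part of enterocyte content in these r was not tested.

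**Figure D4:**
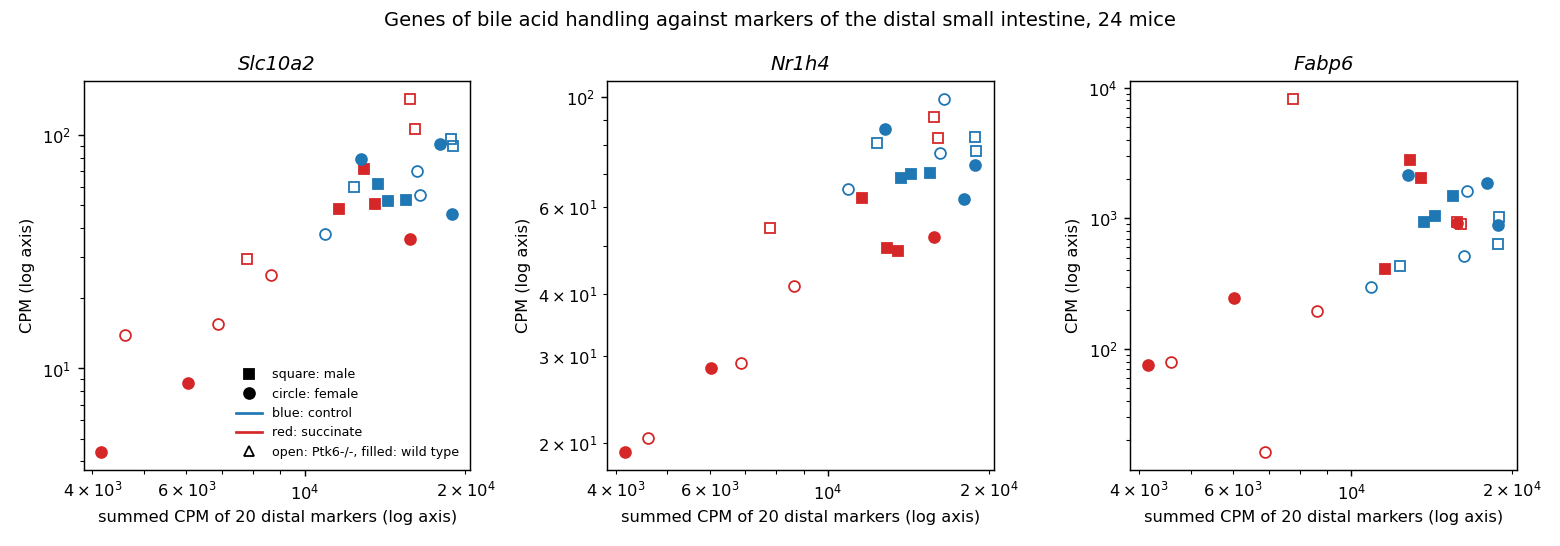
CPM of Slc10a2, Nr1h4 and Fabp6 in each of 24 mice against the summed CPM of 20 distal small intestine markers, both on log axes, with squares for males, circles for females, red for succinate and open symbols for Ptk6-/-. The 4 mice with the lowest distal sums, 4162 to 6884 CPM, are females on succinate, and the open red square at the top of the Fabp6 panel is the male library at 8220 CPM.

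With the proximal list only *Nr0b2* had an adjusted p under 0.05 (r = 0.508, rho = 0.502, permutation adjusted p = 0.0263 and 0.0384), which was 0.298 centred on group means. *Slc10a2* and *Nr1h4* had r of -0.223 and -0.219 with it, and 0.0116 and 0.00875 centred on group means.

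Among the 15672 genes that reached 10 counts in 12 or more libraries, those most like each member by Spearman's rho across 24 libraries were named, as a description without a test. *Fabp6* was closest to *Tnfaip8l2* (0.930), *Amn* (0.916) and *Lmbr1l* (0.896), and *Amn*, which encodes the anchor of the vitamin B12 receptor of the distal gut, is also in the distal list. *Slc51a* was closest to *Cndp2* (0.956), *Lmbr1l* (0.956) and *Mettl7b* (0.948), and *Slc51b* to *Tapbp* (0.927), *Pgpep1* (0.921) and *Ocm* (0.903). *Lmbr1l* was thus shared by *Fabp6* and *Slc51a* on the CPM scale, while on the FPKM scale its rho was 0.569 with *Fabp6* and 0.921 with *Slc51a*.

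*Nr1h4* was closest to *Smpdl3b* (0.927), *Casp4* (0.917) and *Tmc5* (0.910). *Slc10a2* was closest to ENSMUSG00000117226 (0.866), *Sptlc2* (0.862) and *Abcg2* (0.861), an apical exporter. *Fgf15* and *Nr0b2* had weaker neighbours, *Praf2* (0.762), *Nrn1* (0.755) and *Gjb1* (0.724) for *Fgf15* and *Rab40c* (0.799), *Tmem38a* (0.795) and *Plekhf1* (0.787) for *Nr0b2*. Centred on group means these were 0.506, 0.296 and 0.421 for *Fgf15* and 0.641, 0.536 and 0.636 for *Nr0b2*. The libraries share depth and composition effects, which enter each of these values.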

How the data were processed

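Stranded poly(A) libraries of distal jejunum from 24 mice were sequenced. According to the methods and the submitters' processing notes, the authors trimmed reads with Cutadapt, checked them with FastQC, mapped them with HISAT2 and assembled transcripts with StringTie, and the notes name GRCm39. The count values, as deposited by the authors, are reads per Ensembl gene without normalization, and the program that counted them is not given in the sources used here. The FPKM values were deposited by the authors from StringTie and ballgown. Columns of the authors' own comparisons were not used.

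Counts were tested in R 4.3.3 with edgeR 4.0.16 (quasi-likelihood, TMM), keeping genes that reached 10 counts in 3 or more libraries of the fit, in 14 comparisons and 3 added after the values were seen. The methods name DESeq2, and edgeR was the main test here. Calls needed an adjusted p (Benjamini-Hochberg, over all genes tested) below 0.05 and a 2-fold change. P-values of the comparisons set each effect against the spread between mice of a group. Alternatives were DESeq2 1.42.0, its size factors in edgeR, no filter, a replicate block, a gene length offset fitted per library (length read from the ratio of counts to FPKM), limma 3.58.1 on log2(FPKM + 1) or log2(FPKM + 0.1) with and without a minimum mean of 0.5 FPKM, all 24 libraries in 1 fit, and each library left out. A set without the 3 libraries that stood apart was added later. A count of 0 was read as up to 3 counts, and intervals of this kind cover counting error only. Correlations used 1e+05 permutations over all 24 libraries, so their p also takes in differences between groups. For values centred on group means the permutations were made within groups. The fits of 4 comparisons were tested on simulated data, and that of the genotype by succinate interaction in females recovered few of the changes put in. Of 13 gene lists, those without a value in the text (goblet, Paneth, lymphoid follicle, liver, pancreas and erythrocyte) served as checks of tissue content. The pancreas list stayed under 1 CPM in every library, and in the 12 females the other lists had median log2 fold changes after succinate of -0.11 for goblet, 1.06 for Paneth, 0.66 for lymphoid follicle, -1.59 for liver and -0.78 for erythrocyte genes.

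Named were the 7 genes, other pathway genes called or with the 3 smallest p in a comparison of all mice, the 3 genes most like each member other than Gm and Rik names, and *Ptk6*. *Nr1i2*, *Vdr* in the succinate comparison, *Nr5a2*, *Hnf4a*, *Cyp7b1*, *Nr1h3*, *Cyp3a13* and *Rn18s-rs5* were singled out with their values known. The 7 genes, lists and tests were chosen with earlier results of these data known.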

Additional observations from a re-analysis of the deposited data

Results flagged for a closer look

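*Slc51b*, the beta subunit of the basolateral exporter, had succinate effects of opposite direction in different groups, with no overlap between treated and control mice in each. Its log2 fold change was 1.09 in *Ptk6*-/- males, -0.89 in wild type females and -1.36 in *Ptk6*-/- females (edgeR adjusted p = 0.600, 0.617 and 0.427). Of all genes tested, 23% did not overlap in *Ptk6*-/- males, and 7.32% and 10.1% were lower without overlap in wild type and *Ptk6*-/- females. *Slc51b* was flagged by this same lack of overlap. The difference between the sexes had an edgeR adjusted p of 0.183 and was not called. In *Ptk6*-/- males the value was 0.61 without the library with the lowest total and 0.29 with limma on log2(FPKM + 1). With 1 library left out it ranged from -1.03 to -0.683 in wild type females and from -1.65 to -0.576 in *Ptk6*-/- females.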

How the results depend on the processing

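The counts of member genes called changed with the tool in 4 comparisons. DESeq2 called 3 of 7 for succinate in *Ptk6*-/- females, 4 for succinate in all females, 4 for the difference of that effect between the sexes and 3 for sex, where edgeR called 0, 0, 0 and 1. Over all genes DESeq2 called 433, 637, 207 and 323 in these comparisons and edgeR 17, 160, 16 and 78. With all 24 libraries in 1 fit, edgeR called 1 for succinate in *Ptk6*-/- females (*Nr1h4*) and 3 in all females. When 1 library was left out, the count ranged from 0 to 1 for genotype in control females, succinate in wild type males and succinate in all mice, from 0 to 2 for succinate in wild type females, from 0 to 4 for succinate in all females, from 0 to 3 for its difference between the sexes and from 1 to 3 for sex, and the other comparisons stayed at 0. The upper end came without replicate 3 of the female wild type succinate group, except in control females (without replicate 3 of the *Ptk6*-/- control group) and wild type males (without replicate 1 of the succinate group). With values centred on group means, 4 of the 21 pairs of members and 3 of the 14 relations with regional lists had an adjusted p under 0.05, where 10 and 5 had without centring. The cause was not tested.

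Replicate numbers of the labels did not pair the samples, since the correlation of deviations between samples of the same number ranged from -0.321 to 0.21. With a replicate block the count was 1 for sex and 0 in every other comparison, as without it.

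Reversals were counted in comparisons pooled over groups and for members with an unadjusted p under 0.05. There they concerned values near 0 or *Nr0b2*, none of them called. Outside that count, *Fabp6* for genotype in succinate males went from 1.04 to -0.923 without the libraries that stood apart. Its genotype by succinate interaction in males went from 1.78 to -0.0851 in the same way. *Slc51b* for genotype over all mice was 0.182 with the length offset, 0.187 with that and the block, and -0.215 to 0.0424 with 1 library left out. *Slc51b* for sex was 0.0909 with limma on log2(FPKM + 1), with or without a filter, 0.0912 with a pseudocount of 0.1 and 0.0569 without the libraries that stood apart. *Slc10a2* in all males was -0.116 with limma, filtered or not, -0.176 with a pseudocount of 0.1, and -0.102 to 0.312 with 1 library left out. *Nr0b2* in all males was 0.0534 with the block, 0.0108 with limma without a filter, and -0.477 to 2.88 with 1 library left out. *Fgf15* in all females ranged from -0.303 to 0.309 and *Nr0b2* in the difference between the sexes from -1.72 to 1.96 in the same way. Over the 59 results on single genes so counted and 1567 values under alternatives, 1508 kept direction and side of the threshold, 31 passed it anew, 0 lost it and 28 reversed. Across the series low counts limit *Nr0b2* alone among the 7 genes. In the male *Ptk6*-/- succinate group, 1 library of 8080321 counts is a further limit, with 19 counts of *Fgf15*, 107 of *Slc10a2* and 198 of *Nr1h4*.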
